A study of Mus musculus with 8 samples.

Results

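The genes described here are 34 mouse genes of the nuclear pore complex and of nuclear transport, 27 nucleoporins and 7 transport factors, out of 49315 genes in each count table. They were listed by name and found by matching the Ensembl identifiers of the tables to GRCm38 gene symbols. All 34 were found once each, are annotated as protein coding and passed the filter on low counts, which left 16126 genes tested. The list was picked because many nucleoporins were lower with simvastatin in these same libraries, so every value of that contrast describes the members and tests nothing about them. RNA was sequenced from heart muscle cells of C57/Bl6 mouse embryos at day 12.5, pooled from males and females, and cultured either in medium with 10 µM simvastatin (SMV) or in control medium (Ctrl), with 4 libraries of each. Simvastatin is an inhibitor of HMG-CoA reductase, the enzyme that makes mevalonate. The labels do not say whether the 4 replicates of a group were separate cultures, and the p-values below measure the spread between these libraries alone, which may be technical.

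The nuclear pore is a channel through the nuclear envelope built from many copies of each nucleoporin. The Y complex forms its outer rings and the inner ring lines its middle, while membrane proteins anchor it. Nucleoporins with phenylalanine-glycine repeats fill the channel, and filaments and a basket extend from its cytoplasmic and nuclear faces. Importins and exportins carry cargo through the channel, and the small GTPase Ran sets the direction because its GTP-bound form is made in the nucleus and hydrolysed in the cytoplasm. In dividing cells the pore is taken apart and rebuilt at mitosis, and pore proteins and Ran also act at the spindle and the kinetochores.

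Library totals ran from 30474586 to 34993255 counts in SMV and from 31457872 to 35215640 counts in Ctrl libraries, and the lowest count of any member in any library was 88. Column headers also carry a set number, with replicates 1 and 3 of SMV and of Ctrl in set 1 and replicates 2 and 4 in set 2. The sources used here do not say what distinguishes the sets. All 10 cardiomyocyte markers listed were detected, with summed levels of 49095 to 55237 CPM (counts as a share of the scaled library total) in SMV and 41620 to 52631 CPM in Ctrl libraries. Long genes were low in SMV replicate 1 and Ctrl replicate 3. Among genes with at least 6612 bases of exon, of 10301 looked at, the median deviation from the group mean (log2 CPM) was -0.10 in SMV replicate 1 and -0.12 in Ctrl replicate 3, against -0.0035 to 0.11 in the other libraries. For some genes, results that rest on these 2 libraries are therefore also given without them.

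**Figure D1:**
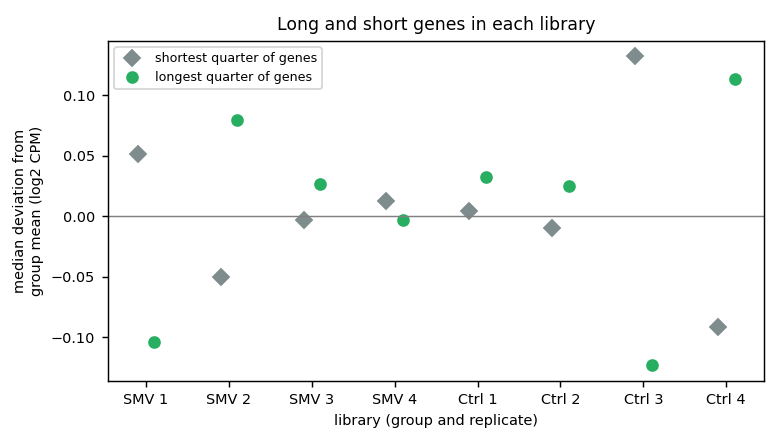
Median deviation of each library from its group mean (vertical axis, log2 CPM) for genes of at most 2661 bases of exon (grey diamonds) and of at least 6612 bases (green circles), one position per library. The green points of SMV replicate 1 and Ctrl replicate 3 lie lowest, at -0.10 and -0.12.

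Of the 34 members 16 fell with simvastatin and 0 rose (an adjusted p under 0.05 in the quasi-likelihood test of edgeR), where over all genes tested 9.61% fell and 7.79% rose. The median log2 fold change of SMV over Ctrl was -0.52 for the members, against 0.01 for all genes, and 32 of 34 were negative. In 16 members all 4 SMV libraries lay below all 4 Ctrl libraries, as they did for 12.1% of genes tested. Since the list was chosen for its falls, nothing is read from these shares. Summed over the 34 genes the level was 2129 to 2556 CPM in SMV and 3227 to 3324 CPM in Ctrl libraries. The calls were unevenly spread over the parts of the pore. In the Y complex 6 of 8 genes fell, in the Ran cycle 3 of 3 and among membrane genes 2 of 3. Of the channel 1 of 3 fell, of the inner ring 1 of 5 and of the cytoplasmic face 1 of 5. Of the basket 1 of 3 fell and of the transport receptors 1 of 4. The inner ring and the cytoplasmic face had equal counts of calls but medians of -0.58 and -0.14. In edgeR 4 of 5 inner ring genes and 1 of 5 of the cytoplasmic face had an unadjusted p under 0.05, against 29.5% of all genes. The parts are small and the differences between them were not tested. In bulk RNA, fewer cells of a type and less RNA per cell cannot be told apart.

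**Figure D2:**
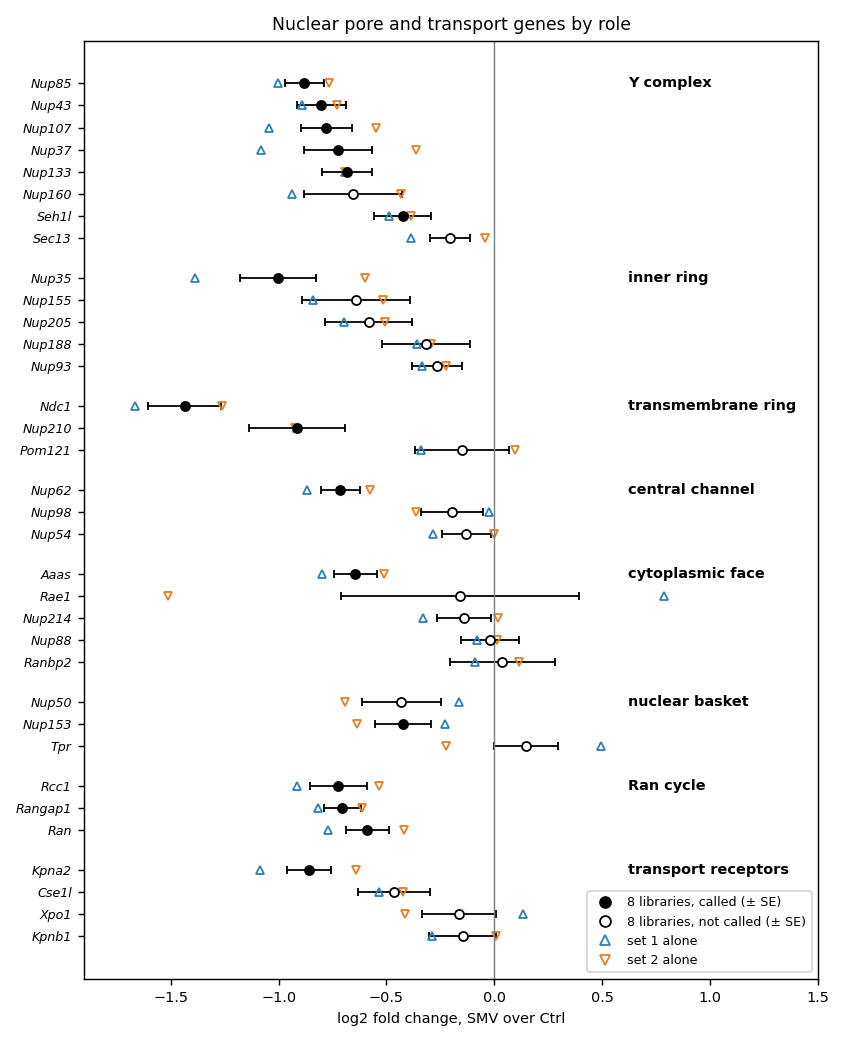
Log2 fold change of SMV over Ctrl for each member (horizontal axis), grouped by role. Circles with bars are the fit over 8 libraries ± SE, filled where the gene was called, and triangles are the estimates in each set alone. Ndc1 lies farthest left at -1.43, and Ranbp2 and Tpr lie right of 0.

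Promoter sequence was a property the choice of genes did not use. RefSeq windows (GRCm38.p6, 250 bases before to 50 after each start, read 5′ to 3′ on the gene's strand) were held for 29 of the 34 members, in 32 windows. These motifs were searched on both strands: CCAAT, the box bound by NF-Y; TTTGAA or TTCGAA, the cell cycle homology region read by the MuvB complexes; GCGGGAA or GGCGGGA, of the E2F site; and GCATGCGC, the core of the NRF1 site. The 2 forms of the E2F motif can overlap each other, and the NRF1 core can overlap its own reverse complement. Capitals below mark every match. The windows shown belong to the largest fall in the Y complex, the membrane ring, the Ran cycle and the receptors among genes with a window, and to Nup88, the member nearest to no change.
Nup107 (chr10:117792656-117792955, minus strand): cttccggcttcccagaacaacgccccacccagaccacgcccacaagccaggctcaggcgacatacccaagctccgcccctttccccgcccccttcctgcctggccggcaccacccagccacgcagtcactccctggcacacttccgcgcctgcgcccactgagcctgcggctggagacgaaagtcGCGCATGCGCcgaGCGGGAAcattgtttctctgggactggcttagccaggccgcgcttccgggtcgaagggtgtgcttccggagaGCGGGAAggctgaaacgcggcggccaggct
Ndc1 (chr4:107367797-107368096, plus strand): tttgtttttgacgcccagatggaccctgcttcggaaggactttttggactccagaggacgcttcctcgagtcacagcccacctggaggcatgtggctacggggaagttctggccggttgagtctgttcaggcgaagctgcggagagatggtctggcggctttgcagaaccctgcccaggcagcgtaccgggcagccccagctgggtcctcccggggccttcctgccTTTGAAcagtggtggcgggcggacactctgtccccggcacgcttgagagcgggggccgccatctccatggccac
Rcc1 (chr4:132345701-132346000, minus strand): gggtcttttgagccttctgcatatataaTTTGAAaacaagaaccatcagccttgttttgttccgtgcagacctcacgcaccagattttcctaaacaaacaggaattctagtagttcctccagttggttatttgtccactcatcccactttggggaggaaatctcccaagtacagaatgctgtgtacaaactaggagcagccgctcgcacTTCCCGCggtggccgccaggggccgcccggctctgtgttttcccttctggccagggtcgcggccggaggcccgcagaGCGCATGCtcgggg
Kpna2 (chr11:106999476-106999775, minus strand): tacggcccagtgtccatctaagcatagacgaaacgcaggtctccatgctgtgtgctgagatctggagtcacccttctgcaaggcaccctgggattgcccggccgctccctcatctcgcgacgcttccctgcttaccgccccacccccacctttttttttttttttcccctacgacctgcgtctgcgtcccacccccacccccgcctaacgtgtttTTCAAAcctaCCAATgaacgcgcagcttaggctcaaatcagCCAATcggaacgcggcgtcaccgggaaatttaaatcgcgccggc
Nup88 (chr11:70969924-70970223, minus strand): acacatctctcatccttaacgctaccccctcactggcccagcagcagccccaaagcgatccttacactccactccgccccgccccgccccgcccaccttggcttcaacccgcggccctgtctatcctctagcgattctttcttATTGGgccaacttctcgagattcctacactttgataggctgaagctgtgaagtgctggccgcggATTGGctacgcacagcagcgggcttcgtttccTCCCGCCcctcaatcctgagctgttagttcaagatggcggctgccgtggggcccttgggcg
The Ndc1 window holds 1 match of the cell cycle homology region, starting at position -24 from the RefSeq start. The Kpna2 window holds one at position -35, reverse to the gene, beside CCAAT boxes at positions -25 and 7. Nup107 has E2F matches at positions -52 and 21 and an NRF1 palindrome from position -65. Rcc1 has the cell cycle homology region at position -222, the E2F motif at -41 and the NRF1 core at 37, and Nup88 has CCAAT boxes at positions -107 and -43 and an E2F match at position -11. The RefSeq starts of Ndc1, Rcc1 and Kpna2 lie inside the gene as the count tables bound it.

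Across the 29 members with a window, 9 (31.0%) held the cell cycle homology region, against 16.3% of 11239 genes tested here that have a window. For the E2F motif the count was 9 (31.0%, against 26.7%), for the NRF1 core 5 (17.2%, against 5.66%) and for CCAAT 12 (41.4%, against 42.6%). Over all RefSeq windows the motifs stood in 19.2%, 13.3%, 2.71% and 37.4% of windows, in that order. A split by call uses the contrast that picked the list and was not made over all genes, so it describes these members alone. Among the 12 members with a window that fell, 5 held the cell cycle homology region, 6 the E2F motif, 4 the NRF1 core and 3 CCAAT. Among the 17 that were not called the counts were 4, 3, 1 and 9. These are counts of letters in a short window and say nothing about what binds there.

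Ndc1, a membrane protein that anchors the pore in the nuclear envelope (chromosome 4, 107367784 to 107416346, GRCm38, plus strand), had the largest fall of the 34. Its level was 17.0, 29.5, 24.5 and 28.8 CPM in SMV replicates 1 to 4, against 71.2, 69.5, 58.5 and 70.5 CPM in Ctrl replicates 1 to 4. The highest SMV library lay far below the lowest control, which was Ctrl replicate 3. The log2 fold change was -1.43 ± 0.17 (SE), or 37.0% of the control level. Nup210, a glycoprotein that spans the membrane at the pore, was the member with the lowest level per length. It stood at 4.35, 5.56, 2.84 and 4.18 CPM in SMV, against 6.66, 8.97, 6.78 and 9.55 CPM in Ctrl libraries, with a log2 fold change of -0.91 ± 0.22. Its groups did not overlap, but without SMV replicate 1 and Ctrl replicate 3 it missed the threshold, though its estimate was no smaller in size. Pom121, the other membrane nucleoporin of the list, stood at 8.77 ± 1.09 CPM in SMV and 9.72 ± 2.83 CPM in Ctrl (SD, n = 4 each), with groups that overlapped. Pom121 shares exon sequence with Nsun5 on the opposite strand over 11.9% of its length. Whether reads were counted by strand is not stated.

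The Y complex is the scaffold that is seeded on chromatin when pores reassemble after mitosis, and it also sits at kinetochores. Nup107, Nup133 and Sec13 belong to its stem, and Nup85, Nup43, Seh1l, Nup160 and Nup37 to its arms. Nup85 (chromosome 11, 115564434 to 115583985, plus strand) had 48.7, 52.8, 53.3 and 51.2 CPM in SMV replicates 1 to 4, against 99.6, 88.4, 102 and 88.8 CPM in Ctrl replicates 1 to 4. The SMV libraries lay close together and far below the controls, at 54.3% of the control level (log2 fold change -0.88 ± 0.09). Nup107 (chromosome 10, 117750624 to 117792705, minus strand) had 33.5, 45.5, 37.3 and 44.5 CPM in SMV, against 73.2, 63.9, 70.9 and 67.9 CPM in Ctrl libraries. Its groups did not overlap (log2 fold change -0.78 ± 0.12), and the 2 SMV libraries of set 1 lay below those of set 2. Nup43 averaged 14.5 ± 1.17 CPM in SMV and 25.2 ± 1.49 CPM in Ctrl (log2 fold change -0.80). Nup133 averaged 33.8 ± 3.28 CPM in SMV and 54.3 ± 5.92 CPM in Ctrl (log2 fold change -0.68, and -0.69 in set 1 alone, where it was not called), and 10.4% of its exon length overlaps predicted genes on the other strand.

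Nup37 and Seh1l also fell. Nup37 stood at 10.9, 13.4, 12.5 and 14.98 CPM in SMV, against 24.9, 17.7, 24.2 and 18.8 CPM in Ctrl libraries, with log2 fold changes of -1.08 in set 1 and -0.36 in set 2. The groups did not overlap, but without SMV replicate 1 and Ctrl replicate 3 the estimate of -0.59 missed the threshold. Seh1l averaged 85.6 ± 15.9 CPM in SMV and 115 ± 7.37 CPM in Ctrl (log2 fold change -0.42). Its call was lost in 7 of the 8 fits without 1 library, with folds of -0.33 to -0.46 in those 7. Nup160 was not called. It stood at 16.5, 29.8, 28.6 and 32.6 CPM in SMV, against 54.4, 37.6, 30.8 and 46.6 CPM in Ctrl libraries, where Ctrl replicate 3 lay within the SMV range. Its log2 fold change was -0.66 over 8 libraries and -0.48 without SMV replicate 1, short of the threshold in both. It passed at -0.78 without Ctrl replicate 3 and at -0.61 without both. With all 8 libraries it also passed in DESeq2's Wald test and in edgeR with no filter on low counts, at -0.65 in each. Sec13, which also belongs to the coat of vesicles leaving the endoplasmic reticulum, averaged 201 ± 15.3 CPM in SMV and 232 ± 18.1 CPM in Ctrl. Its log2 fold change of -0.21 ± 0.09 was the smallest in size of the 8.

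Nup35, an inner ring protein that binds membranes and Ndc1 (chromosome 2, 80617236 to 80658906, plus strand), was the inner ring gene that fell. It had 8.10, 11.4, 10.3 and 10.7 CPM in SMV, against 24.8, 16.7, 22.7 and 16.7 CPM in Ctrl libraries. The groups did not overlap, and the controls of set 1 stood above those of set 2. It stood at 49.9% of the control level, with log2 fold changes of -1.39 in set 1 and -0.60 in set 2. Its annotated near-copy Gm4353 had counts equal to 2.47% of those of Nup35. The 4 other inner ring genes had log2 fold changes of -0.27 to -0.64 and groups that overlapped. For Nup205 and Nup155, large scaffold proteins, 1 control set the overlap. Nup205 stood at 27.4, 46.7, 42.6 and 48.8 CPM in SMV, against 69.1, 68.6, 43.0 and 67.1 CPM in Ctrl libraries. Nup155 stood at 16.3, 29.9, 21.6 and 30.6 CPM in SMV, against 44.6, 42.3, 22.5 and 44.2 CPM in Ctrl libraries. In both genes Ctrl replicate 3 lay among the SMV values. Without SMV replicate 1 and Ctrl replicate 3 both passed the threshold, with log2 fold changes of -0.57 for Nup205 and -0.68 for Nup155. Of the 18 alternatives tried, Nup205 passed in 6 and Nup155 in 5. Nup93, which links the inner ring to the channel, averaged 110 ± 14.6 CPM in SMV and 132 ± 12.5 CPM in Ctrl. It was called, at -0.27, with set as a term in the fit and under no other alternative. Nup188 ranged from 17.1 to 33.1 CPM in SMV and from 24.9 to 37.7 CPM in Ctrl libraries, and shares 12.4% of its exon length with 2 predicted genes.

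Of the 3 channel genes, Nup62 fell. Nup62 (chromosome 7, 44816088 to 44830812, plus strand), whose phenylalanine-glycine repeats fill the channel, had 98.6, 113, 102 and 105 CPM in SMV, against 172, 164, 190 and 162 CPM in Ctrl libraries. The groups lay well apart, at a log2 fold change of -0.71 ± 0.09. It shares 97 of its 2854 bases of exon with Il4i1 and Atf5. Its channel partner Nup54 averaged 37.4 ± 4.48 CPM in SMV and 40.9 ± 2.02 CPM in Ctrl, a log2 fold change of -0.13 ± 0.11. Nup98, whose product is cleaved into a channel nucleoporin and a Y complex subunit, averaged 54.5 ± 7.18 CPM in SMV and 62.5 ± 10.3 CPM in Ctrl. Its log2 fold change was -0.20 ± 0.14, with groups that overlapped.

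On the cytoplasmic face 4 of 5 genes were not called. Ranbp2, the giant filament protein that binds Ran and SUMO-modified Rangap1, had 44.2, 95.9, 68.6 and 77.6 CPM in SMV, against 74.1, 76.5, 44.4 and 84.0 CPM in Ctrl libraries. Its groups overlapped over the whole control range, and the lowest library of each was SMV replicate 1 and Ctrl replicate 3. The log2 fold change of Ranbp2 was 0.04 ± 0.24. Nup88 and Nup214, which form one filament complex that holds the exportin Xpo1, had log2 fold changes of -0.02 ± 0.13 and -0.14 ± 0.12. Nup88 stood at 151, 201, 185 and 212 CPM in SMV, against 199, 204, 151 and 205 CPM in Ctrl libraries. A fold change near 0 with these errors does not show that the levels were alike. Aaas, which encodes aladin, a pore protein that binds Ndc1, fell with 43.7, 45.1, 38.7 and 48.2 CPM in SMV, against 71.7, 64.0, 70.1 and 68.8 CPM in Ctrl libraries. Its groups did not overlap (log2 fold change -0.64 ± 0.10).

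Rae1, an mRNA export factor that also acts in the spindle checkpoint, varied more between libraries than any other member. It had 81.1, 33.1, 106 and 26.0 CPM in SMV replicates 1 to 4, against 14.8, 84.7, 91.4 and 84.3 CPM in Ctrl replicates 1 to 4. With simvastatin both libraries of set 2 were low, and among the controls replicate 1 of set 1 was low. The pooled log2 fold change of -0.16 ± 0.55 combined 0.79 in set 1 with -1.51 in set 2.

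In the nuclear basket, Nup153 fell, at 11.6 ± 1.05 CPM in SMV and 15.5 ± 1.42 CPM in Ctrl (log2 fold change -0.42 ± 0.13). Nup153 docks importins and the basket, and its call was lost in 7 of the 8 fits without 1 library, with folds of -0.37 to -0.47 in those 7. Nup50, a partner of Nup153 that releases import cargo, had 30.3, 33.4, 39.4 and 30.0 CPM in SMV, against 28.6, 51.3, 48.2 and 51.3 CPM in Ctrl libraries. It was not called: 3 controls lay above every SMV library, and Ctrl replicate 1 lay below them all. Without that control its log2 fold change was -0.60 and passed the threshold, against -0.43 with it. Tpr, the long coiled coil of the basket, had 106, 88.3, 117 and 82.7 CPM in SMV, against 76.1, 88.3, 80.1 and 112 CPM in Ctrl libraries. Its estimate had opposite signs in the sets, 0.49 in set 1 and -0.23 in set 2.

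**Figure D3:**
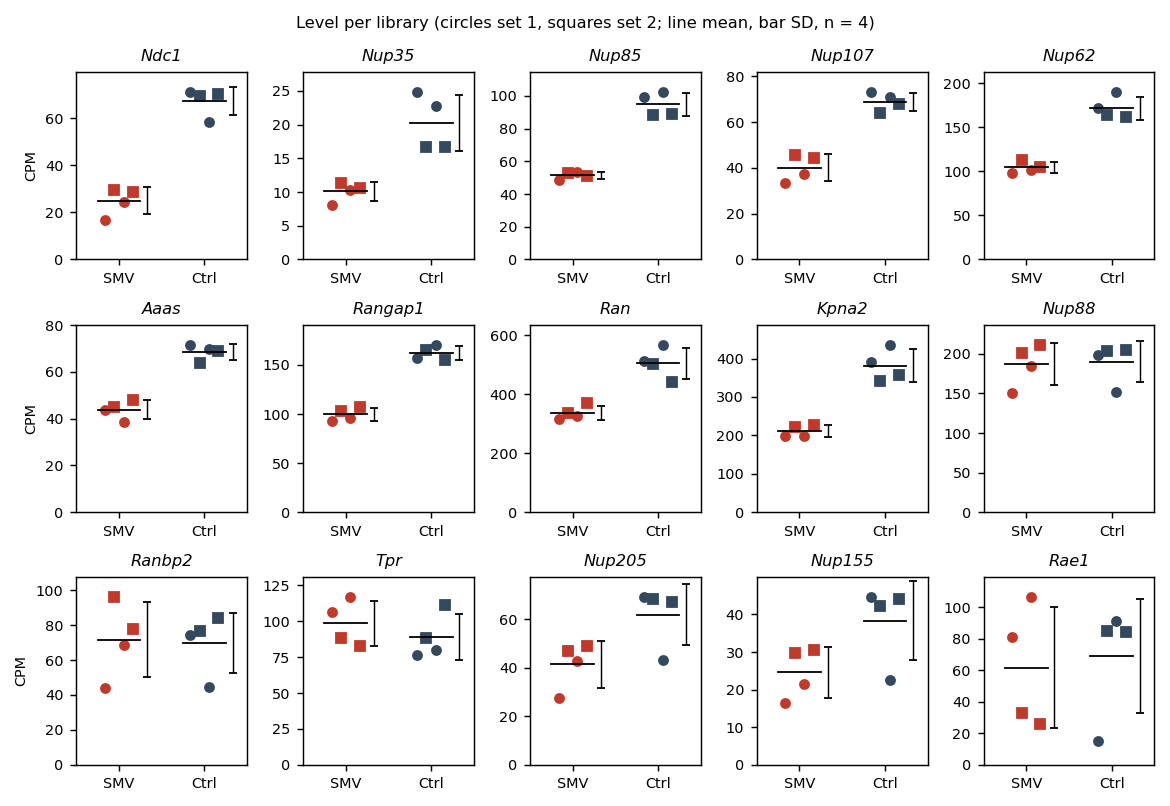
Level in CPM (vertical axes, each from 0) of 15 members in each SMV (red) and Ctrl (dark) library, with circles for set 1 and squares for set 2, a line at the mean and a bar for the SD (n = 4). Ndc1, Nup85 and Rangap1 show groups well apart, Nup205 and Nup155 show 1 low control, and Rae1 shows libraries scattered from 14.8 to 106 CPM.

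All 3 genes of the Ran cycle fell. Ran itself (chromosome 5, 129020069 to 129024323, plus strand) had 315, 335, 326 and 369 CPM in SMV, against 512, 502, 569 and 440 CPM in Ctrl libraries. Rangap1, the activating protein that makes Ran hydrolyse GTP in the cytoplasm, had 92.4, 103, 96.1 and 107 CPM in SMV, against 157, 166, 171 and 156 CPM in Ctrl libraries. Neither gene's groups overlapped, with log2 fold changes of -0.59 ± 0.10 for Ran and -0.70 ± 0.09 for Rangap1. Rcc1, the chromatin-bound exchange factor that loads Ran with GTP, averaged 22.5 ± 1.89 CPM in SMV and 37.1 ± 5.66 CPM in Ctrl (log2 fold change -0.72 ± 0.13). Rcc1 shares 3.51% of its exon length with Snhg3 and a predicted gene.

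Among the transport receptors, Kpna2, an importin alpha that binds classical nuclear localisation signals and is abundant in dividing cells (chromosome 11, 106988629 to 106999541, minus strand), fell. It had 197, 221, 197 and 227 CPM in SMV, against 391.6, 341, 436 and 358 CPM in Ctrl libraries. The groups did not overlap, at 55.2% of the control level (log2 fold change -0.86 ± 0.10). Kpna2 has 6 annotated near-copies, whose counts summed to 1.17% of its own. Cse1l, the exportin that returns importin alpha to the cytoplasm, had 88.3, 132, 117 and 144 CPM in SMV, against 169, 186, 125 and 183 CPM in Ctrl libraries. Ctrl replicate 3 again lay within the SMV range, and without it the log2 fold change was -0.57 and passed the threshold, against -0.46 with it. Cse1l passed in 5 of the 18 alternatives tried. Kpnb1, importin beta, averaged 69.6 ± 10.1 CPM in SMV and 77.0 ± 15.5 CPM in Ctrl (log2 fold change -0.15 ± 0.15). Xpo1, the main exportin for proteins, averaged 62.4 ± 5.17 CPM in SMV and 69.9 ± 18.9 CPM in Ctrl, with estimates of 0.13 in set 1 and -0.41 in set 2.

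Carriers and pore genes outside the list were looked at in the same fit. Of 55 other symbols of nuclear transport written down for comparison, 53 were found and 51 were tested. Of these 6 fell and 0 rose, and the median log2 fold change was -0.07. In edgeR 15 of them had an unadjusted p under 0.05, and DESeq2 called 6 lower and 1 higher. These shares, 11.8% lower and 29.4% at an unadjusted p under 0.05, were near those of all genes, 9.61% and 29.5%. By role, 0 of 15 other importins and 0 of 12 other pore genes were called in edgeR, with 3 of each at an unadjusted p under 0.05 and medians of -0.04 and 0.02. Of 15 exportins and mRNA export factors 3 fell, and of 9 other Ran regulators 3 fell, with medians of -0.17 in both. Ranbp1, which helps Ran hydrolyse GTP, had 133, 114, 125 and 110 CPM in SMV, against 166, 175, 296 and 187 CPM in Ctrl libraries (log2 fold change -0.77, edgeR adjusted p = 0.0115). Its groups did not overlap, and Ctrl replicate 3 stood above the other controls. Nxt1, a partner of the mRNA exporter, averaged 18.8 ± 1.13 CPM in SMV and 29.2 ± 3.53 CPM in Ctrl (log2 fold change -0.63, edgeR adjusted p = 0.00504). Nxf1, that mRNA exporter, averaged 218 ± 14.8 CPM in SMV and 264 ± 11.4 CPM in Ctrl (log2 fold change -0.28, edgeR adjusted p = 0.0437). Xpo5, which exports microRNA precursors, had a log2 fold change of -0.55 (edgeR adjusted p = 0.0375). Senp1, a SUMO protease, had a log2 fold change of -0.50 (edgeR adjusted p = 0.0405), and its highest SMV library (36.6 CPM) lay just above its lowest control (36.5 CPM). Of these 5 calls, those of Nxt1 and Ranbp1 held in each of the 8 fits without 1 library.

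Genes of cell division fell in the same libraries. All 24 on a list of replication and mitosis genes fell, where over all genes tested 9.61% fell and 7.79% rose. The median log2 fold change of the 24 was -1.80. Their summed level was 635 to 889 CPM in SMV and 2532 to 2900 CPM in Ctrl libraries. This list was chosen with earlier results of these data known, so the count is a description and no test. Mki67, the proliferation marker, stood at 29.1% of the control level and Ccnb1, cyclin B1, at 32.6%, and the 24 genes ranged from 16.8% to 51.4%. Of the called members, Ndc1 at 37.0% and Nup35 at 49.9% lay in that range. The other called members stood above it, at 53.1% to 74.6%. Of the 10 cardiomyocyte markers 2 were called higher and 0 lower, with a median log2 fold change of 0.11. Markers of other cell types also differed. The 6 smooth muscle markers summed to 433 to 669 CPM in SMV and 2524 to 3667 CPM in Ctrl libraries, with 5 of 6 lower. The 8 fibroblast markers summed to 1209 to 1457 CPM in SMV and 1146 to 2557 CPM in Ctrl libraries, with 3 lower. The 7 endothelial markers (178 to 206 CPM in SMV, 188 to 252 CPM in Ctrl) had 2 called in each direction, and the 6 epicardial markers (308 to 334 CPM in SMV, 222 to 351 CPM in Ctrl) had 1 in each. The 6 macrophage markers (45.8 to 56.5 CPM in SMV, 63.4 to 73.2 CPM in Ctrl) had 2 of 5 tested lower, and the 7 erythroid markers (14.8 to 32.8 CPM in SMV, 7.18 to 10.8 CPM in Ctrl) had 3 of 5 tested higher. No marker of these lists was at 0 in all libraries, and their part in the values of the pore genes was not tested.

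The difference between SMV and Ctrl was compared between the sets, a measure that did not enter the choice of the genes. With an interaction term in edgeR, 0 of 34 members were called, where 0.0558% of all genes were. Without adjustment 7 members had p under 0.05, against 1850 of 16126 genes, and the smallest adjusted p among the members was 0.151, for Tpr. The interaction estimate was positive in 26 of 34 members, which is a higher fold change in set 2 than in set 1. Its median was 0.20 (log2), against 0.03 over all genes, and the share of positive estimates over all genes was not counted. Most genes of the cell division list were positive too, with Mki67 at 0.12 and Ccnb1 at 0.49. The fold changes within each set are parts of the contrast that picked the list, so they describe the members and test nothing. Set 1 alone gave a median of -0.61 with 12 members lower, where 5.91% of all genes were. Set 2 alone gave a median of -0.47 with 20 lower, where 11.5% of all genes were. The members' estimates were negative in both sets for 26 of 34, a share that was not counted over all genes. This comparison turned on single libraries: without Ctrl replicate 3, which leaves 1 control in set 1, 1213 genes and 3 members were called (Rae1, Nup50 and Tpr), and without Ctrl replicate 1, 316 genes and Rae1. The lone control is then assumed to vary like the other groups.

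Calls were split unevenly by length. Of the 17 members with at most 4832.5 bases of exon, 12 fell, and their median log2 fold change was -0.70. Of the 17 longer ones 4 fell, and the median was -0.32. Over all genes 1003 of 10388 genes up to that length fell, and 546 of 5738 longer ones. Without SMV replicate 1 and Ctrl replicate 3, 10 short and 7 long members fell, with medians of -0.63 and -0.23. Over all genes 1160 of 16193 tested were lower in that fit, a count not split by length. The part of length in these calls was not tested beyond this.

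On a scale per length, TPM (counts divided by exon length and scaled to a fixed total), the members spanned from Ran to Nup210 in both groups. Ran averaged 340 ± 23.5 TPM in SMV and 496 ± 38.8 TPM in Ctrl, and Kpna2 196 ± 15.3 TPM in SMV and 345 ± 32.2 TPM in Ctrl. Next in the controls came Sec13 at 175 to 199, Nup62 at 156 ± 8.25, Rangap1 at 131 ± 1.48 and Aaas at 98.3 ± 6.36 TPM. Each of these 6 lay above the whole control range of the next. Below them most neighbours in the order could not be separated: for 24 of 33 neighbouring pairs the control ranges touched. The lowest were Nup153 at 4.48 ± 0.41 TPM in SMV and 5.83 ± 0.63 TPM in Ctrl, Pom121 at 4.21 ± 0.50 TPM in SMV and 4.52 ± 1.29 TPM in Ctrl, and Nup210 at 1.08 ± 0.29 TPM in SMV and 1.99 ± 0.40 TPM in Ctrl. Ndc1 moved most in the order, standing at place 23 in SMV and at place 15 in Ctrl.

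Subunits of one complex differed widely in level. Within the Y complex, Nup160 averaged 8.23 ± 2.21 TPM in SMV and 12.6 ± 3.44 TPM in Ctrl, and Nup133 12.9 ± 1.28 TPM in SMV and 20.1 ± 2.34 TPM in Ctrl. Nup85 averaged 40.8 ± 2.04 TPM in SMV and 72.7 ± 5.05 TPM in Ctrl, and Seh1l 65.3 ± 12.0 TPM in SMV and 85.0 ± 7.25 TPM in Ctrl, with Sec13 above all of them in both groups. Summed over its 8 genes the Y complex stood at 372 ± 36.9 TPM in SMV and 504 ± 24.8 TPM in Ctrl. The membrane genes summed to 15.1 to 21.7 TPM in SMV and 36.6 to 45.9 TPM in Ctrl libraries, or 44.8% of the control level. The inner ring summed to 77.4% of its control level, the channel to 69.7%, the cytoplasmic face to 85.7%, the basket to 92.4%, the Ran cycle to 67.4% and the receptors to 64.1%. Each such sum is dominated by its most abundant genes.

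**Figure D4:**
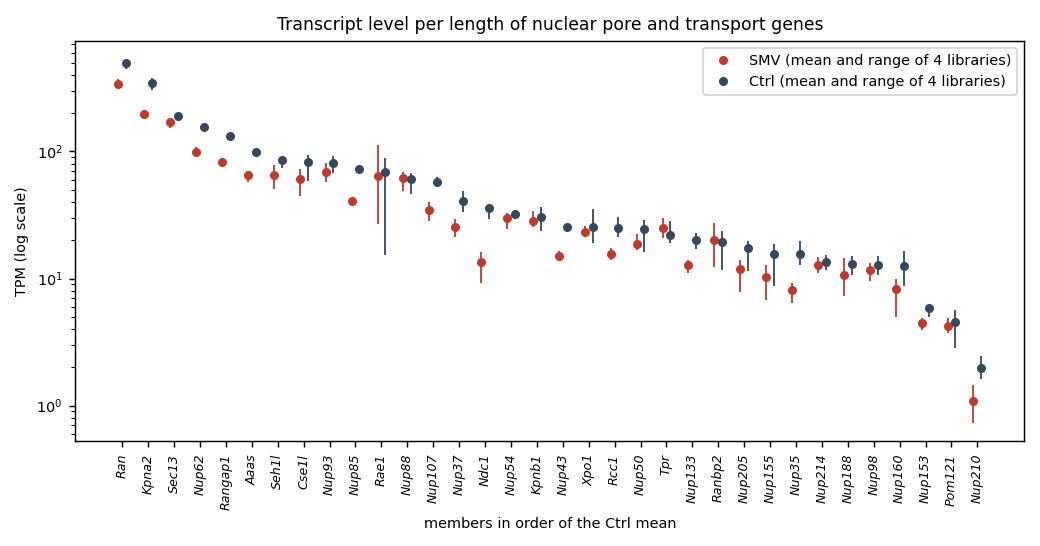
Level per length (vertical axis, TPM on a log scale) of the 34 members in SMV (red) and Ctrl (dark), with the mean as a point and the range of 4 libraries as a line, ordered by the Ctrl mean. Levels in Ctrl run from 496 TPM for Ran to 1.99 TPM for Nup210, and Ndc1 shows the widest gap between groups.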

How the data were processed

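RNA of 4 SMV and 4 Ctrl samples was sequenced. The deposited values are raw counts per Ensembl gene. Trimmomatic 0.36, STAR 2.5.2b and featureCounts (Subread 1.5.2) appear in the submitters' processing notes, with GRCm38 and mm10 as builds. The sources used here state neither the strand setting nor the annotation release, nor how reads with several matches were treated.

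Symbols came from GENCODE M21, which matched 99.3% of 49315 identifiers. Positions are those of the files (1-based), and 26 of 34 members had the same bounds in GENCODE. After filterByExpr, genes were tested in edgeR 4.0.16 under R 4.3.3 (quasi-likelihood F test, two-sided) with TMM scaling, treatment as the only term and Benjamini-Hochberg adjustment at 0.05 over all genes. CPM use TMM-scaled totals. SE is the absolute log2 fold change divided by the square root of F. TPM use the deposited exon lengths. Near-copies are other annotated genes with a transcript match of at least 95% identity over 200 bases or more. The alternatives tried were library totals and DESeq2's size factors, the Wald test of DESeq2 1.42.0, other filters, a replicate block, set as a term, each set alone and each library left out. SMV replicate 1 and Ctrl replicate 3 were left out together after the data were seen. The edgeR step was tested on simulated data. No library of a group repeated another within sampling noise. The 34 members and the lists were chosen with earlier results of these data known. Named were all members, every other transport gene with an adjusted p under 0.05, Mki67 and Ccnb1. Of these transport genes 1, counted in the totals, is not reported here, which leaves 5. Bmp7, Rbm38, Ddx19b, Tor1aip1 and overlapping genes were named after their values were seen. Protein sequences were not used here.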

Additional observations from a re-analysis of the deposited data

Results flagged for a closer look

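Of 82 groups of 4 libraries (41 named genes, each in SMV and in Ctrl), 7 had 1 library far from the other 3, where chance gives about 1 in 20. All 7 were controls. Ctrl replicate 3 was low for Nup155 (22.5 CPM, against 42.3 to 44.6 CPM in the other controls), Nup205 (43.0 CPM, against 67.1 to 69.1 CPM), Ndc1 (58.5 CPM, against 69.5 to 71.2 CPM) and Nup88 (151 CPM, against 199 to 205 CPM). The same library was high for Ranbp1 (296 CPM, against 166 to 187 CPM). Ctrl replicate 1 was low for Rae1 (14.8 CPM, against 84.3 to 91.4 CPM) and Nup50 (28.6 CPM, against 48.2 to 51.3 CPM).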

How the results depend on the processing

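Of the 16 called members, 11 kept their call under all 18 alternatives and 14 in each of the 8 fits without 1 library. Seh1l and Nup153 each lost it in 7 of those 8. The members' count was 14 to 19 without 1 library, where 1185 to 1417 of all genes tested were lower. The members' median was -0.60 to -0.44 in those fits. Over all genes, set 1 alone gave 979 lower and 648 higher, and leaving out 1 library gave 817 to 1115 higher. The other transport genes lower numbered 1 in set 1 alone and 2 to 4 without 1 library. Under some alternatives 1 of these genes was called higher. It was Tor1aip1 in set 2 alone, and Ddx19b with library totals, DESeq2's Wald test, the 1 CPM filter, set as a term, and without SMV replicate 1 and Ctrl replicate 3. Leaving out 1 library gave 0 to 1 higher. The interaction gave 981 genes and 1 member (Rae1) with no filter, 0 to 1213 genes and 0 to 3 members without 1 library, and 1212 genes and 4 members without SMV replicate 1 and Ctrl replicate 3. DESeq2 was not run for the interaction. With the replicate block, 14 members, 3 other transport genes and 2131 genes in all were called. With set as a term the counts were 20 members, 8 other transport genes lower and 3362 genes in all. The values showed no pairing by replicate number (correlations of deviations -0.14, 0.045, 0.13 and -0.16), and no sample correlated best with its own number. Such correlations cannot show whether the samples were paired by design.

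The signs that reversed were all of members that were not called. In set 2 alone the log2 fold change was 0.10 for Pom121, 0.013 for Nup88, 0.018 for Nup214, -0.23 for Tpr and 0.0097 for Kpnb1. In set 1 alone it was -0.089 for Ranbp2, 0.79 for Rae1 and 0.13 for Xpo1. Library totals gave 0.0013 for Nup88. Without 1 library, values were -0.11 to 0.071 for Nup88, -0.14 to 0.21 for Ranbp2, -0.56 to 0.083 for Rae1 and -0.26 to 0.012 for Xpo1. The cause was not tested.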

Other observations

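Rae1 and a neighbour on chromosome 2 had low libraries in common. Rbm38 stood at 36.0, 34.3, 42.3 and 21.4 CPM in SMV replicates 1 to 4, against 19.6, 54.1, 65.8 and 58.7 CPM in Ctrl replicates 1 to 4. Ctrl replicate 1 was the lowest control for both genes, and SMV replicate 4 the lowest SMV library. SMV replicate 2 was low for Rae1 alone. Rae1 had 33.1 CPM there against 81.1 CPM in SMV replicate 1, and Rbm38 had 34.3 CPM against 36.0 CPM. Bmp7, on the other side of Rae1, stood at 34.4, 36.1, 37.9 and 32.4 CPM in SMV, against 39.0, 41.0, 34.3 and 39.4 CPM in Ctrl libraries, with no such low library. The 3 genes were looked at after the values of Rae1 had been seen.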
